A study of Rattus norvegicus with 34 samples.

Results

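The comparison described here sets the 3 arrays labelled severe neurotrauma at 48 h against the 3 arrays labelled mild neurotrauma at 48 h, 6 of the 34 arrays of the series, across all 21864 features that could be tested (16805 of them with a gene symbol in RefSeq). The arrays were chosen by their titles. All groups were primary cortical neurons of Hooded Wistar rat embryos kept 21 days in culture, when clusters of cells are joined by bundles of axons. The labels give the embryos' age both as embryonic day 17 and as gestation day 15 to 16. Axon bundles were either cut with a fine knife or stretched by puffed oxygen. Which injury counted as mild and which as severe is not in the labels. Each time point pooled 12 or more wells, and the 3 cultures came from separate dams, per the labels. Replicate numbers are not tied to cultures, so the p-values below reflect array-to-array spread, which may be technical. The remaining arrays used in the fit were severe injury at 0 h (1 array) and at 8, 15 and 24 h (3 arrays each).

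Each value is a deposited ratio, put here on the log2 scale, of an array's signal to the mean of the 3 arrays labelled mild 48 h. A value of 0 is therefore the mean of those arrays, and 1 is a doubling. Because these arrays are their own divisor, their log2 ratios lie close to 0. Ratios carry no signal level, and the column names of the deposited signal table match no label, so its levels were not used and whether markers of the labelled cell type were present was not checked here.

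Several properties of the arrays bear on every result. The label mild 48 h is uncertain: the columns of the deposited signal table that match these 3 arrays stand between those matching controls 1 to 3 and controls 4 to 6, and under that order they would be uninjured controls. They are called by their label throughout. All 3 severe 48 h arrays lay on 1 chip, and the arrays labelled mild 48 h lay on 3 other chips, so chip and group cannot be told apart within the 6 arrays. Severe 48 h replicate 2 had a median log2 ratio of -0.62 over 91 oxidative phosphorylation and proteasome genes, against 0.03 in replicate 1 and 0.31 in replicate 3. The other severe arrays lay between 0.01 and 0.33. Severe 48 h replicate 3 differed least from severe 15 h replicate 3 (SD of the difference over features 0.17) and replicate 1 least from severe 15 h replicate 1 (0.19), while replicates 1 and 3 differed from each other with an SD of 0.31 and replicates 1 and 2 with an SD of 0.35. Replicate 2 differed least from severe 24 h replicate 3 (0.31), so each severe 48 h array had an array of another time as its nearest.

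Cultures of embryonic cortex hold neurons together with astrocytes, cells of the oligodendrocyte lineage, ependymal cells that carry motile cilia, and fibroblasts from the meninges that secrete collagen. Injury to axons is known to engage stress, inflammatory and growth programmes, and glial cells respond to it as well. In RNA from a whole culture, fewer cells of a type and less RNA per cell cannot be told apart.

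In the severe 48 h arrays, genes of motile cilia and several glial markers were higher, and genes of collagen, of its processing and of the ribosome were lower, than in the arrays labelled mild 48 h. With limma and Benjamini-Hochberg adjustment over all features, 2452 features (11.2%) passed an adjusted p of 0.05. Of these, 754 rose (3.45% of all features) and 1698 fell (7.77%). A difference of more than 2-fold was reached by 376 of the risen and 653 of the fallen features, and one of more than 16-fold by 4 and 16. The median difference of all features was 0.00. All 3 severe arrays lay above all 3 arrays labelled mild in 2269 features (10.4%) and below them in 3244 (14.8%).

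**Figure D1:**
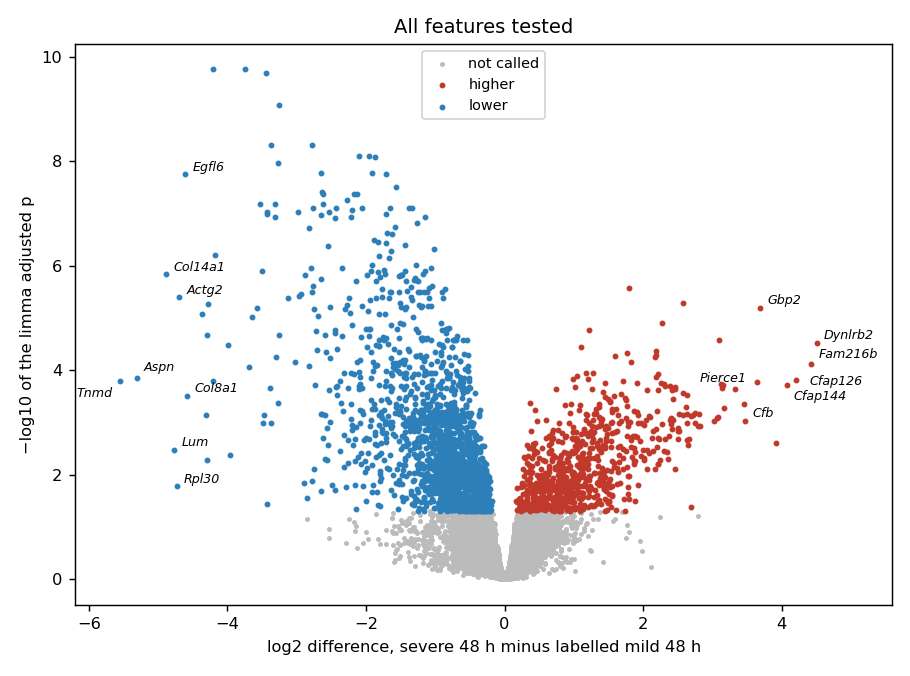
Each point is 1 of 21864 features, with the log2 difference between severe 48 h and the arrays labelled mild 48 h on the x axis and −log10 of the limma adjusted p on the y axis. The 754 risen features are red, the 1698 fallen ones blue and the rest grey, and 7 of the 8 largest rises and the 8 largest falls are named.

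The split between rises and falls depended on severe 48 h replicate 2. Without it 1422 features rose (6.5%) and 1407 fell (6.44%), of which 713 and 1381 were also called with it, and no feature was called in opposite directions. Replicate 2 held the lowest of the 3 severe values in 647 of the 754 rises (85.8%) and in 1325 of the 1698 falls (78.0%). In all 12.9% of features were called without it. Among called genes, those whose difference moved most without it were Ccdc80 (-2.57 to -2.03), Fhl1 (1.55 to 2.01), Fn1 (-1.89 to -1.43), Nrgn (-2.86 to -2.32), Septin4 (1.48 to 1.94) and Tpm4 (-1.92 to -1.47), on the log2 scale. Centring each array on its 91 oxidative phosphorylation and proteasome genes gave 1026 rises (4.69%) and 1446 falls (6.61%), 11.3% of features. Quantile normalization gave 494 rises (2.26%) and 731 falls (3.34%), 5.6% of features. It forces 1 distribution on arrays of unequal width. Over features, log2 ratios of the divisor arrays had SDs between 0.07 and 0.09, against 0.45 to 0.60 for severe arrays. The setting therefore widens the differences among the divisor arrays by construction. Lower counts after quantile normalization, here and below, cannot decide whether a call is robust. With chip as a block, estimated through the earlier severe arrays, 183 rises (0.837%) and 723 falls (3.31%) were called, 4.14% of features.

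**Figure D2:**
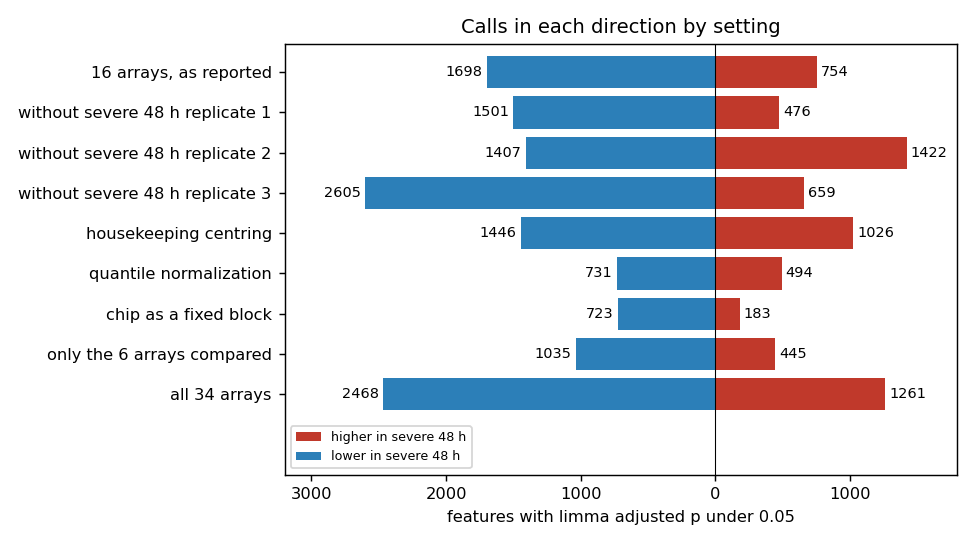
Bars give the number of features with a limma adjusted p under 0.05, to the right for higher and to the left for lower in severe 48 h, under 9 settings. Rises number 754 as reported and 1422 without severe 48 h replicate 2, where falls number 1407.

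The genes with the largest rises were led by parts of the ciliary axoneme, the microtubule shaft that lets a cilium beat. Dynlrb2, a light chain of dynein, had log2 ratios of 4.60, 3.80 and 5.08 in severe 48 h replicates 1, 2 and 3, and of -0.16, 0.25 and -0.12 in the arrays labelled mild. The groups lay far apart, with replicate 2 lowest and replicate 3 highest. The difference was 4.50 ± 0.44 (SE, limma adjusted p = 2.931e-05), a 22.7-fold rise. Dynlrb1, its close relative, was at -0.09 ± 0.21 (limma adjusted p = 0.869). Cfap126, a protein needed for placing the ciliary base, was at 4.16, 3.50 and 4.94 in the severe arrays. Its difference was 4.21 ± 0.50 (limma adjusted p = 1.497e-04). Fam216b (4.43), Cfap144 (4.07), Pierce1 (3.65), Tppp3 (3.33), Spag6l (3.17), Enkur (3.15), Cfap43 (3.13) and Spmip6 (3.13) were among the 15 largest rises on the log2 scale. Myb, a transcription factor that takes part in the making of multiciliated cells, rose by 3.45 ± 0.47 (limma adjusted p = 4.382e-04).

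Counts of list members below are set against the 3.45% of all features that rose and the 7.77% that fell. Of the 80 motile cilia and axoneme genes measured, 59 rose, none fell and 21 did not pass the test, with a median difference of 1.20. Among 19 genes of dynein motors and their assembly 14 rose, for example Dnai2 (2.72 ± 0.40) and Zmynd10 (2.58 ± 0.38). Of 11 radial spoke and central pair genes 6 rose, including Rsph1 (2.43 ± 0.37), and of 44 nexin link and other axoneme genes 36 rose. Of 6 transcription factors of multiciliated cells 3 rose, among them Rfx2 by 0.30 ± 0.06 on the log2 scale. The list median was 1.25, 0.69 and 1.65 in severe replicates 1, 2 and 3, and 62 members rose without replicate 2 and 28 with chip as a block. Of 34 genes of the primary cilium, the non-motile sensory cilium of most cells, 6 rose, among them Ift80 (1.46 ± 0.37) and Bbs7 (1.20 ± 0.32), while 18 rose without replicate 2, 16 with housekeeping centring and none with chip as a block. Of the 8 ependymal markers measured, 5 rose and S100a6 fell. Tmem212 was among the risen, with 3.08.

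**Figure D3:**
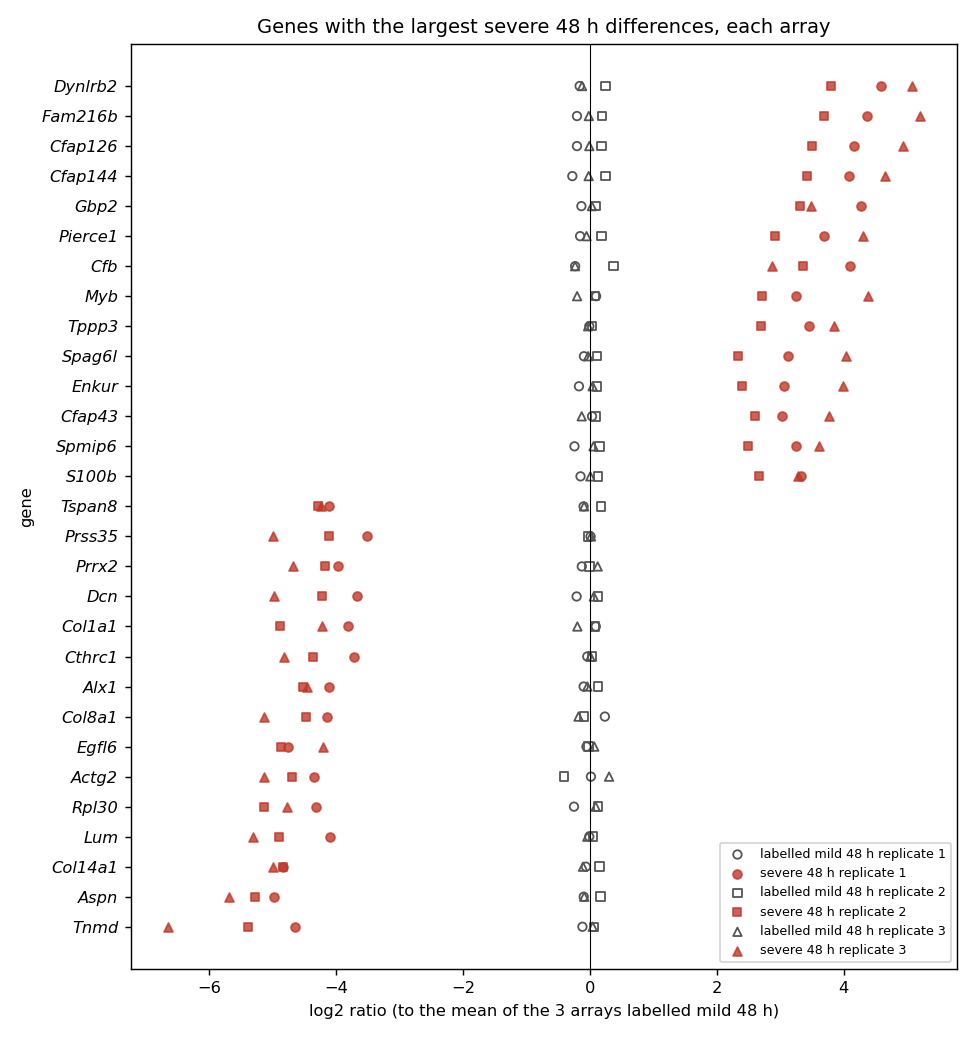
Of the 15 genes with the largest rises 14, and the 15 with the largest falls, are listed on the y axis, with the log2 ratio in each array on the x axis. Filled red symbols are the 3 severe 48 h arrays and open grey symbols the 3 arrays labelled mild 48 h. The groups do not overlap for any of these genes, which is a condition of their choice, and severe replicate 2 (squares) is the lowest of the severe arrays for most of the rises.

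The largest falls were led by extracellular matrix genes. Col14a1, a collagen that sits on fibril surfaces, was at -4.83, -4.83 and -5.00 in severe replicates 1, 2 and 3 and between -0.11 and 0.16 in the arrays labelled mild. The 3 severe arrays were nearly equal, and the difference was -4.88 ± 0.34 (limma adjusted p = 1.456e-06), 29.5-fold lower. Tnmd, tenomodulin of tendon and ligament cells, was at -4.66, -5.39 and -6.64, and its difference was -5.56 ± 0.67 (limma adjusted p = 1.575e-04). The last of these Tnmd values is the smallest ratio in the table, 0.01, which may be a floor. Tspan8, a membrane protein of the tetraspanin family, had the least spread of the 30 genes, with -4.11, -4.29 and -4.24 and a difference of -4.21 ± 0.10 (limma adjusted p = 1.736e-10). Aspn (-5.31) and Lum (-4.77), both small leucine-rich proteoglycans of collagen fibrils, were also among the largest falls, as were Egfl6 (-4.61), Col8a1 (-4.58), Alx1 (-4.36), Cthrc1 (-4.31), Col1a1 (-4.30), Dcn (-4.29), Prrx2 (-4.27) and Prss35 (-4.21). Actg2, an actin of smooth muscle, fell by 4.70 ± 0.37, while Actg1, its cytoplasmic relative, was at -0.43 ± 0.21 (limma adjusted p = 0.255).

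Many collagen genes, and genes of the enzymes that process collagen, fell. Of 38 collagen chain genes 19 fell and none rose, with a median of -0.22. The falls were 8 of 11 fibrillar collagens (median -2.37), 6 of 12 network and beaded collagens (-0.23) and 5 of 15 fibril-associated and other collagens (-0.08). Col2a1, the fibrillar collagen of cartilage, was at -1.58, -1.56 and -1.56 in the severe arrays, with a difference of -1.57 ± 0.07. Col6a1 was at -3.10, -3.67 and -3.53 and its difference was -3.43 ± 0.17. Col5a1 (-3.50 ± 0.23), Col5a2 (-3.57 ± 0.29) and Col12a1 (-2.71 ± 0.28) fell too. Of 29 collagen processing genes 19 fell and none rose, with a median of -1.09. Pcolce, which enhances removal of the procollagen tail, was at -3.98, -4.43 and -4.17, and the cross-linking enzyme Loxl2 fell by 2.65 ± 0.14. Of the 16 small leucine-rich proteoglycans 7 fell and Ecm2 rose (0.77 ± 0.16), and with chip as a block 4 fell and none rose. Of 23 basement membrane genes 7 fell, among them Lamb1 (-1.96 ± 0.18) and Nid2 (-1.82 ± 0.18). Lama5 rose (0.91 ± 0.25), which is 4.35% of the list, near the 3.45% of all features. No basement membrane gene rose after quantile normalization or with chip as a block.

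Genes of the TGF-beta and IGF pathways and mesenchyme transcription factors fell in part. Of 47 TGF-beta pathway genes 20 fell and none rose (median -0.64), among them the ligand Gdf10 (-2.11 ± 0.08), the latency protein Ltbp1 (-3.42 ± 0.18), which was at -3.47, -3.42 and -3.41, and the target Thbs2 (-2.61 ± 0.12). Of 41 mesenchyme transcription factors 16 fell and none rose, including Twist1 (-1.64 ± 0.10), Snai1 (-1.66 ± 0.11) and Six2 (-1.38 ± 0.07). The median of the 41 was -0.05. After quantile normalization 12 TGF-beta pathway genes and 8 mesenchyme transcription factors fell. In the IGF pathway 7 of 15 genes fell: the growth factor Igf2 (-3.43), its receptor Igf2r (-2.52 ± 0.21) and the neighbouring non-coding RNA H19, at -3.21, -3.25 and -3.33, were among them. Of 35 matrix proteases and inhibitors 10 fell and 2 rose, the plasminogen activator Plat (1.68 ± 0.26) and its inhibitor Serpine2 (0.99 ± 0.16). Of 16 fibroblast and meningeal markers 10 fell (5 with chip as a block) and 1 rose, with a median of -2.62. That median was -2.51, -3.02 and -1.95 in severe replicates 1, 2 and 3. Pdgfra (-0.04) and Aldh1a2 (-0.14) of the same list did not pass the test, and Slc22a6 rose. Ptgds had the highest difference of the list, 2.12, without passing the test. It was at 2.42, 2.27 and 1.62 in the severe 48 h arrays and between -0.26 and 0.27 in those labelled mild. The spread in the test also takes in the earlier severe arrays. Ptgds was at -6.34 in severe 8 h replicate 1 and at -5.63 in severe 24 h replicate 2. In the other arrays of 8, 15 and 24 h it lay between -0.20 and 1.17. The part of fibroblast and meningeal cells in the collagen result was not tested.

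Most cytosolic ribosomal protein genes were lower. Of 76 cytosolic ribosomal protein genes 61 fell and none rose, with a median of -0.89. Rpl35 was at -1.13, -1.65 and -1.04 in severe replicates 1, 2 and 3, below all arrays labelled mild (-0.13 to 0.09), and its difference was -1.27 ± 0.13 (limma adjusted p = 5.325e-05). Rps2 fell by 1.54 ± 0.17. Rpl34 (0.05 ± 0.08) and Rpl38 (0.05 ± 0.08) did not pass the test. The list medians were -0.71, -1.29 and -0.67, and 60 members fell without replicate 2, 40 with chip as a block and 38 after quantile normalization. Rpl30 stood apart from the others with -4.32, -5.14 and -4.77. In the earlier severe arrays Rpl30 was between -4.81 and -4.39 in 7 arrays, at -0.30 and -0.43 in severe 8 h replicate 1 and severe 24 h replicate 2, and at -1.35 in the severe 0 h array. Its difference of -4.74 ± 1.14 (limma adjusted p = 0.0166) was lost with chip as a block (adjusted p = 0.223). Ribosomal protein genes have many near-identical copies in the genome, so their probe values are uncertain. Of 60 mitochondrial ribosomal protein genes 1 fell, Mrps10 (-0.69 ± 0.13), which is 1.67% of the list, below the 7.77% of all features. Of 58 oxidative phosphorylation and 33 proteasome genes, the genes used for the centring above, none was called. Without replicate 2, 4 of the 58 and 1 of the 33 rose, where 6.5% of all features did. The oxidative phosphorylation median was 0.02, -0.60 and 0.30 in severe replicates 1, 2 and 3.

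Of 41 genes of the ATF4 and integrated stress response list 19 fell and none rose (median -0.55). ATF4 is the transcription factor that raises amino acid supply when protein synthesis is restrained. Trib3, a feedback inhibitor of ATF4, was at -2.45, -2.50 and -2.64, and its difference was -2.53 ± 0.13 (limma adjusted p = 9.14e-08). Chac1, which degrades glutathione, fell by 1.18 ± 0.11, Asns, the asparagine synthetase, by 1.61 ± 0.18, and Ddit3 by 1.45 ± 0.17. Slc1a5 fell by 1.22 ± 0.13 as the mean of probes that disagreed, at -2.41 and -0.04. Of 18 aminoacyl-tRNA synthetase genes 9 fell, and of 37 ER chaperone and unfolded protein response genes 14 fell (9 without replicate 2), among them Xbp1 (-1.38 ± 0.15). The chip block left 4 and 5 falls in these lists, and 5 in glycolysis. In glycolysis 9 of 30 genes fell, including the lactate exporter Slc16a3 (-3.32 ± 0.16) and Pkm (-2.10 ± 0.24). Aldoc and Slc16a1 rose, and no gene of this list rose with chip as a block.

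Promoters of ATF4-list members whose mRNA fell are shown for the motif TGATGNAA, the CARE element that ATF4 dimers bind. Sequences are from RefSeq on GRCr8, from 250 bases before to 50 after the start site, on the gene's strand, with the match in either orientation in capitals. Trib3 lies at chr3:161275484-161275783 on the minus strand and Chac1 at chr3:126795881-126796180 on the plus strand.
Trib3: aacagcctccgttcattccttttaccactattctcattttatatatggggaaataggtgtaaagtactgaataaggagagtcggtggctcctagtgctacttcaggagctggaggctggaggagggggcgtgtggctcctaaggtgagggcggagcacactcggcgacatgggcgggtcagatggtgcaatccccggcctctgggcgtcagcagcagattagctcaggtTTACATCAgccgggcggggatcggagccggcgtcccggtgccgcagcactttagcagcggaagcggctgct
Chac1: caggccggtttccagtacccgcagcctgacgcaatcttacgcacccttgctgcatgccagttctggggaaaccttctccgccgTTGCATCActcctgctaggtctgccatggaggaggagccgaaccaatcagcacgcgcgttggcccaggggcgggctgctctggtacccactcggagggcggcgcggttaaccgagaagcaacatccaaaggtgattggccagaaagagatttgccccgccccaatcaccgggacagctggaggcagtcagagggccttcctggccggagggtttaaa
Of 36 list members with a promoter sequence 10 held the motif (27.8%), 3 of 15 that fell and 7 of 21 that were not called, against 3.82% of all 27457 promoters.

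Immune genes were raised in part. Gbp2, a guanylate-binding protein induced by interferon, was at 4.27, 3.32 and 3.48 in the severe arrays and between -0.13 and 0.09 in those labelled mild. Its difference was 3.69 ± 0.30 (limma adjusted p = 6.407e-06). Its relatives Gbp1 (-0.05 ± 0.08), Gbp4 (0.14 ± 0.11) and Gbp5 (0.35 ± 0.25) did not pass the test. Of 56 interferon response genes 9 rose, with Irgm (1.82 ± 0.28), Irf1 (1.18 ± 0.13) and Cmpk2 (2.22 ± 0.38) among the risen. Ifngr2 fell (1.79% of the list, below the 7.77% of all features). Of 36 antigen presentation genes 6 rose, all of class I or the immunoproteasome, such as Psmb8 (1.58 ± 0.21), and 12 rose without replicate 2. With chip as a block 3 interferon response and 3 antigen presentation genes rose, and 5 and 2 after quantile normalization. Of 26 complement genes 8 rose (4 after quantile normalization) and 2 fell (7.69%, near the 7.77% of all features). Cfb, of the alternative pathway, was at 4.10, 3.36 and 2.87, and C2 rose by 2.18 ± 0.23 and C1r by 1.46 ± 0.19. Of 16 microglial and leukocyte markers none rose and Tmem119 fell by 0.30 ± 0.07. That is 6.25% of the list, below the 7.77% of all features. None fell with housekeeping centring, after quantile normalization or with chip as a block. The median of these markers was 0.27, 0.16 and -0.21 in severe replicates 1, 2 and 3. Of 47 cytokine and chemokine genes 3 rose and 3 fell, 6.38% each way, and for the falls below the 7.77% of all features. After quantile normalization 2 rose and 1 fell, and with chip as a block 1 rose and 2 fell. The decoy receptor Tnfrsf11b was at -3.39, -3.39 and -3.34.

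The interferon-stimulated response element was searched for on both strands as GAAA, any 2 bases and GAAA, and promoters of risen genes that hold it are shown as above. Gbp2 lies at chr2:234005477-234005776 on the plus strand and Irgm at chr10:33742529-33742828 on the minus strand.
Gbp2: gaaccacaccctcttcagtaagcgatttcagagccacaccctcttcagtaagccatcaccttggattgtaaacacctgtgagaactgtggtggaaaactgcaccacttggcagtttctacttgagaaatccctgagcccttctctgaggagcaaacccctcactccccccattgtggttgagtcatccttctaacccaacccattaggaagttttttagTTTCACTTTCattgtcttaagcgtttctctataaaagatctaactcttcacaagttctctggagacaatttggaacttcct
Irgm: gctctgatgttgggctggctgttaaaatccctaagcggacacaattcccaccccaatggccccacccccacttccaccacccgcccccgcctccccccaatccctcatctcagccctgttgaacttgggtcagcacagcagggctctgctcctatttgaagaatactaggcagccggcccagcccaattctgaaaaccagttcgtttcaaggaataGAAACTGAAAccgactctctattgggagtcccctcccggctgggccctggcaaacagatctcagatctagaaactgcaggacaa
It was present in 22 of 44 list members with a promoter sequence (50%), 4 of 8 that rose and 18 of 35 that were not called, against 3.77% of all promoters.

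Glial markers were higher in part. Of 14 astrocyte markers 8 rose and none fell, with a median of 0.91. S100b, a calcium-binding protein of astrocytes, was at 3.33, 2.66 and 3.28, and its difference was 3.10 ± 0.30. Mlc1 (2.22 ± 0.28), Fgfr3 (1.49) and Gfap (0.83) rose, while Slc1a2 (0.18), Kcnj10 (0.06) and Sox9 (0.10) did not pass the test. Of 10 oligodendrocyte progenitor markers 5 rose and Vcan fell, which was not called without replicate 2. Bcas1 was at 3.69, 2.74 and 2.77, Nkx2-2 rose by 2.15 ± 0.35, and Olig2 (0.00) and Pdgfra (-0.04) did not pass. Of 16 markers of myelinating oligodendrocytes 4 rose, among them Mal, Ugt8 and Cnp. Of 11 neural progenitor markers 4 rose, Nes (1.98 ± 0.38), Sox2 (1.18 ± 0.29), Pax6 (0.92 ± 0.21) and Notch1 (0.85 ± 0.21), against 2 after quantile normalization. Under the chip block no neural progenitor marker was called, and rises numbered 3 for astrocyte, 2 for oligodendrocyte progenitor and 1 for myelinating oligodendrocyte markers.

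Neuronal markers differed among the severe arrays themselves. The median of 16 neuronal markers was -1.48, -2.26 and -0.21 in severe 48 h replicates 1, 2 and 3. Of the 16 markers 4 fell and none rose, and without replicate 2 a single one fell, Thy1 (-2.21, limma adjusted p = 0.0161). Tubb3, the neuronal beta-tubulin, was at -2.29, -2.98 and -1.62, and its difference of -2.29 ± 0.56 (limma adjusted p = 0.0170) was not called without replicate 2 (adjusted p = 0.0542). Of the neuronal markers 6 fell with housekeeping centring, 1 after quantile normalization and none with chip as a block. Snap25 (-1.30), Syt1 (-0.97) and Map2 (0.01) did not pass the test. Across all severe arrays the neuronal median ran from -2.26 to 0.10. The vesicular glutamate transporter Slc17a6 fell by 2.37 ± 0.44 (severe values -2.54, -2.90 and -1.70), the one called of 55 synaptic vesicle and release genes (1.82%). Of 40 glutamate and GABA receptor genes 1 rose and 1 fell (2.5% each), and of 72 voltage-gated channel genes 2 rose and 2 fell (2.78% each). These shares are below the 3.45% of all features that rose and the 7.77% that fell. No receptor gene was called with housekeeping centring, after quantile normalization or with chip as a block. Of 41 neuropeptide genes 3 rose (7.32%) and 5 fell (12.2%), with a median difference of -0.02. Penk, proenkephalin, was at -3.61, -4.24 and -4.13, and Hcrt, the orexin precursor, was at 2.56, 1.99 and 1.97. With chip as a block no neuropeptide gene rose and 2 fell. Of 52 neuronal cytoskeleton genes 8 fell, against 3 without replicate 2, 5 after quantile normalization and 1 with chip as a block.

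**Figure D4:**
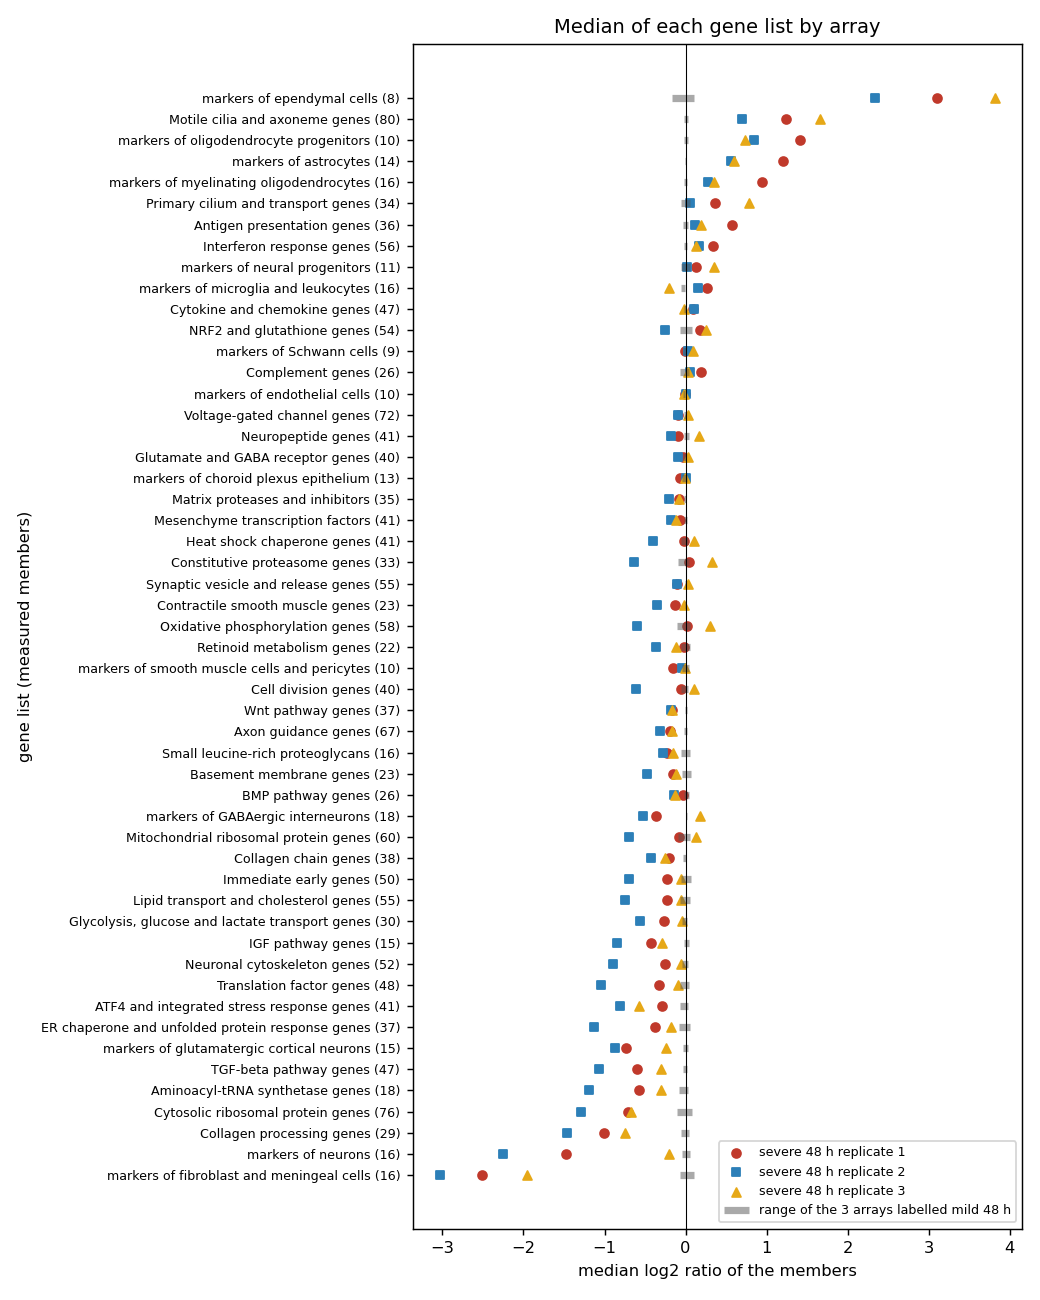
Each row is a gene list with its number of measured members, and the x axis is the median log2 ratio of those members. Coloured symbols are the 3 severe 48 h arrays and grey bars the range of the arrays labelled mild 48 h. Severe replicate 2 (blue) lies lowest for many of the lists, and the neuronal markers run from -2.26 to -0.21 among the severe arrays.

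Some other stress genes were called. Of 54 NRF2 and glutathione genes 8 rose (14.8%) and 5 fell (9.26%, near the 7.77% of all features), with 16 rises without replicate 2 and 4 with chip as a block, and Gstm1 (2.46 ± 0.31) and Prdx6 (1.55 ± 0.24) were among the risen and Mgst2 (-2.65 ± 0.11) among the fallen. Of 41 heat shock chaperones 5 rose (8 without replicate 2, 2 with chip as a block) and 2 fell (4.88%, below the share of all features), and the small chaperone Hspb1 was at 2.56, 1.88 and 2.17. Of 50 immediate early genes 8 fell and none rose, Klf2 by 1.71 ± 0.07 and the prostaglandin synthase Ptgs2 by 2.62 ± 0.45, with 4 falls after quantile normalization and 2 under the chip block. Of 67 axon guidance genes 18 fell, among them Sema3d (-1.80 ± 0.13) and Nrp1 (-1.92 ± 0.27), and 3 rose (4.48%, near the 3.45% of all features), including Plxnb1 (1.10 ± 0.11). Axon guidance falls numbered 10 with housekeeping centring, 8 with chip as a block and 3 after quantile normalization. Of 40 cell division genes 1 rose and 1 fell (2.5% each, below the shares of all features). The risen one, Aurkb, is the mean of probes at -0.01 and 2.54.

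The severe 48 h arrays were also set against the earlier severe arrays. Severe 48 h against the mean of severe 8, 15 and 24 h gave 0 called features of 21864 (0%) with limma, 1242 at an unadjusted p under 0.05, and a smallest adjusted p of 0.0892. Without severe 48 h replicate 3, 29 features were called. The single severe 0 h array held values of the same size for the leading genes: Dynlrb2 at 4.63, Col14a1 at -4.83, Gbp2 at 3.97, S100b at 2.98 and Trib3 at -2.44. Within the chips that hold a severe array of another time and an array labelled mild 48 h, Dynlrb2 differed by 4.66, 4.69 and 4.01 and Col14a1 by -3.84, -5.20 and -3.91. Whether the divisor arrays or the severe arrays set this common difference cannot be told apart here.

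**Figure D5:**
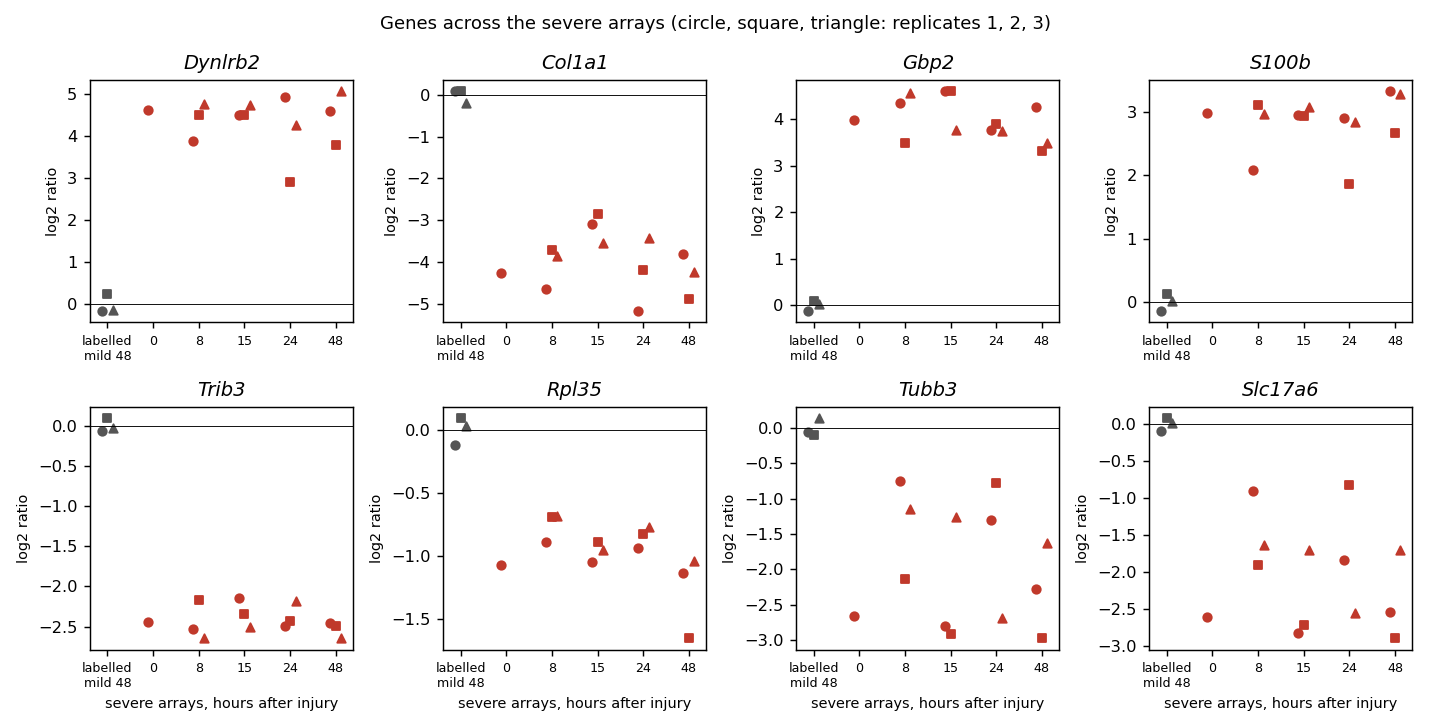
Each panel shows a gene, with the log2 ratio on the y axis and, on the x axis, the arrays labelled mild 48 h (grey) and the severe arrays by hours after injury (red, 1 array at 0 h and 3 at each later time). Dynlrb2 lies between 2.91 and 5.08 in all severe arrays, the 0 h array included at 4.63.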

How the data were processed

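The authors deposited 1 linear ratio per probe and array from Illumina RatRef-12 V1 beadchips hybridised with biotin-labelled RNA, per the labels. Comparison of both deposited tables showed how a ratio arose: the signal was scaled to the median of its array, then divided by the mean of 3 arrays at that probe. Of 5984 possible triples, 2 averaged 1 at all 22226 probes within 1e-04, and the arrays labelled mild 48 h divided 16 arrays. Software and background correction are not given in the sources used here. The names of the deposited signal table's 34 columns match no label, so they entered no comparison and were only set against the ratios by value. Their lowest signal was 24.9 and their medians 40.5 to 51.9, so ratios of dim genes may understate changes, which was not tested.

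Ratios were log2-transformed, and probes of the 354 genes with several were averaged. Names came from the platform annotation (13192 probes), RefSeq accessions (363) and the deposited description (8564), and 107 had none. limma 3.58.1 in R 4.3.3 (lmFit, eBayes, two-sided) was fitted on the 16 arrays with 1 mean per group, Benjamini-Hochberg adjustment and a threshold of 0.05, and was tested on simulated data. Named genes were the 15 largest rises and falls among called genes with a symbol and groups that did not overlap, up to 4 called members of each list per direction with the smallest p, members of short or marker lists, genes that moved most without severe 48 h replicate 2, and relatives by symbol. The 38 gene lists and 14 marker lists, some sharing members, were chosen with earlier results of these data known. Lists were described by counts and medians, with no test. Figures used matplotlib 3.10.9. A few members called by these rules are not reported here.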

Additional observations from a re-analysis of the deposited data

How the results depend on the processing

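Calls numbered 2452 in all (754 higher, 1698 lower). They numbered 3729 (1261 higher) with all 34 arrays, 1480 (445 and 1035) with the 6 arrays compared, 1225 (494 and 731) after quantile normalization and 906 (183 and 723) with chip as a fixed block. Leaving out 1 array at a time gave 1716 to 3264 calls, 455 to 1422 of them higher and 1226 to 2605 lower; the fewest rises came without mild 48 h replicate 1, the most without severe 48 h replicate 2, and the most falls without severe 48 h replicate 3. Rises numbered 476 without severe 48 h replicate 1, 496 without mild 48 h replicate 2 and 465 without mild 48 h replicate 3. The cause was not tested. Housekeeping centring moved the share of rises to 41.5% of calls. Counting severe 15 h replicates 1 and 2, the closest severe pair (SD of the difference 0.13), as 1 array, an alternative chosen after seeing the data, gave 2267 calls.

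The deviations of same-numbered arrays correlated at -0.19, -0.30 and 0.02, and those of differently numbered arrays at -0.26 to 0.34. With 3 arrays a group, these values cannot decide whether the numbers pair the samples. With the replicate block 2440 features were called. For severe 48 h against earlier severe arrays, leaving out 1 severe 48 h array gave 0 to 29 calls (0 to 10 higher, 0 to 19 lower), and housekeeping centring and all 34 arrays gave 2 each, all higher. Of 258 named genes, 165 kept their call with chip as a block, 176 after quantile normalization and 242 without severe 48 h replicate 2. Adh1c alone changed sign, to 0.0431 after quantile normalization (adjusted p = 0.997). Quantile normalization widens the divisor arrays by construction, as described above, so calls lost under it cannot decide robustness. Array weights were not run because they did not converge. With 3 arrays a group and no signal levels, small changes of dim genes may have been missed, which was not tested.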

Other observations

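Genes of further pathways were called in the same severe 48 h comparison. Of 37 Wnt pathway genes 13 fell and none rose, among them the secreted inhibitor Dkk3 (-1.11 ± 0.09), the ligand Wnt2 (-0.70 ± 0.07) and the receptor Fzd7 (-0.58 ± 0.07), against 7 falls with housekeeping centring, 6 after quantile normalization and 8 with chip as a block. Of 26 BMP pathway genes 7 fell and 2 rose. The antagonist Grem1 was at -2.36, -2.10 and -1.96 in the severe arrays, and Bmp6 (0.92 ± 0.14) and Chrdl1 (1.18 ± 0.27) rose. With chip as a block no BMP pathway gene rose and 5 fell, and after quantile normalization 1 rose and 4 fell. Of 23 contractile smooth muscle genes 5 fell, including Smtn (-1.81 ± 0.18) and Csrp2 (-2.10 ± 0.26), and 3 after quantile normalization or with chip as a block. Of 48 translation factor genes 15 fell (6 with chip as a block) and none rose, and Eif4ebp1, a repressor of cap-dependent initiation, was at -2.11, -2.74 and -2.48.

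Of 55 lipid transport and cholesterol genes 8 rose and 8 fell, against 12 and 5 without severe 48 h replicate 2 and 1 and 1 with chip as a block. Apoe, the lipid carrier of astrocytes, rose by 1.20 ± 0.23 and Srebf1 by 1.05 ± 0.18. Of 22 retinoid metabolism genes 3 fell, among them Rara (-1.19 ± 0.18), and 1 with chip as a block.

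Among markers of other cells, 3 of 10 endothelial markers fell, Ramp2 (-2.36 ± 0.32), Emcn (-0.55 ± 0.08) and Cldn5 (-0.36 ± 0.08), and 1 fell with housekeeping centring or after quantile normalization. Of 10 smooth muscle and pericyte markers Anpep fell (-1.34 ± 0.10). Of 13 choroid plexus markers Folr1 rose (1.43 ± 0.31) and Aqp1 fell (-2.08 ± 0.30). The fall is 7.69% of the list, near the 7.77% of all features. None of the 13 was called after quantile normalization, and with chip as a block none rose and 1 fell. Of 15 markers of glutamatergic neurons 2 fell, Slc17a6 and Nrgn, and 1 without severe 48 h replicate 2. Of 18 markers of GABAergic interneurons Calb1 rose, at 2.64, 1.88 and 3.02, and 3 fell, Calb2, Dlx5 and Lhx6, against 1 without severe 48 h replicate 2 and none with chip as a block. Of 9 Schwann cell markers 2 rose, among them Sox10, and Ngfr fell, and none was called with chip as a block. Ngfr was not called without severe 48 h replicate 2.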
